A study of Rattus norvegicus with 6 samples.

Results

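The genes of homologous recombination, the Fanconi anaemia pathway and mismatch repair were compared between replicating and quiescent rat β-cells. The set held 41 genes listed by name. Of these, 35 were found on the array under the listed name, and *Xrcc3*, *Blm*, *Wrn*, *Rmi1*, *Fancg* and *Msh6* were not analysed here. The whole array gave 17582 genes with a RefSeq symbol, each represented by 1 probe. Islets of young adult male Wistar rats without genetic modification were isolated in 3 preparations of 4 rats each and cultured overnight with the thymidine analogue EdU, which is built into newly made DNA, so that both groups were exposed to it. Dispersed cells were fixed, stained with the zinc dye Newport Green and sorted as β-cells by size, granularity and that dye. EdU-positive cells of each preparation made 1 replicating sample, and EdU-negative cells made 1 quiescent sample. The 6 samples, 3 per group, were amplified and hybridised to 1-colour Agilent arrays. Because the rats of a preparation were pooled, the spread between preparations does not show the spread between single rats, and EdU marks cells that passed through S phase during the culture rather than cells in S phase at sorting.

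Homologous recombination repairs a double-strand break, or rescues a broken replication fork, by copying the sister chromatid. The break is found and trimmed to single-stranded DNA by the MRE11 complex and its partners, BRCA1, BARD1, PALB2 and BRCA2 bring the strand exchange recombinase to that DNA, recombinase paralogs and RAD54 proteins help the exchange, and the joined molecules are taken apart by dissolution or by cutting. The Fanconi pathway deals with crosslinks between the DNA strands: a core complex and the conjugating enzyme UBE2T attach ubiquitin to the FANCD2 and FANCI pair, and USP1 takes it off again. Mismatch repair corrects copying errors behind the replication fork. Adult β-cells divide rarely, and a sister chromatid exists only after replication.

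The sorted populations were checked against marker genes. All 7 markers of proliferating cells passed the call used throughout, among them *Cdk1* (4.38) and *Top2a* (3.76). The study listed both of these genes among those with the smallest p-values on these same arrays. The call was an unadjusted p of at most 0.05 in the limma fit with a log2 ratio of at least 1. The ratio was taken between replicating and quiescent cells of the same preparation. The 9 β-cell markers on the array had a summed level of 17.93 to 18.28 on the replicating arrays and 17.24 to 18.42 on the quiescent arrays (log2 of the sum of their linear values, which *Ins1* and *Ins2* dominate). By gene, 6 of the 9 read lower in replicating cells, with a median log2 ratio of -0.56. *Mafa*, a transcription factor of mature β-cells, was called lower (-1.01), and *Mafa*, *Slc2a2* and *Ucn3* had all replicating values below all quiescent values. Markers of fibroblasts and stellate cells also read higher in replicating samples, with 4 of 11 called and summed levels of 13.79 to 15.33 against 12.40 to 12.71. Of 8 markers of other islet endocrine cells, 3 were called, with summed levels of 14.59 to 16.55 against 13.12 to 14.22. Immune markers had 2 of 6 called, *Cd74* and *Cd68*, with summed levels of 11.18 to 12.01 against 10.98 to 12.84, and acinar and duct markers 1 of 10, *Prss1*, with 14.92 to 16.76 against 15.13 to 16.32. Of 6 endothelial markers 0 were called, and 0 had an unadjusted p under 0.05 in limma, with 11.65 to 12.88 against 12.07 to 13.26. The part of these other cells in the results on the repair genes was not tested. The quiescent array of preparation 2 stood apart from the others, with an r of 0.654 across all probes against the quiescent array of preparation 3 and 1583 spots marked as outliers, against 252 to 299 on the other arrays. Across all probes the quiescent array of preparation 3 also stood apart from its own group. Its r with the replicating arrays was 0.943 to 0.969, above the 0.867 and 0.654 with the other quiescent arrays. Across the genes of the set alone the order was reversed. There its r was 0.523 to 0.577 with the replicating arrays, and 0.880 and 0.784 with the other quiescent arrays. In these pooled samples, fewer cells that express a gene and less RNA per cell cannot be told apart.

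The bases just upstream of the start site are shown for the 4 genes of the set with the largest ratios, *Ube2t*, *Bard1*, *Brca1* and *Brca2*, because 16 genes of the set were called in the same direction. Capitals mark matches, on either strand, to the motifs searched. The E2F-type motif was TTCCCGC, with the accepted variants being TTGGCGC, then also the variant TTCGCGC, and lastly the variant TTGCCGC. The CHR-type motif was TTTGAA, with the accepted variant being TTCGAA, and the CCAAT box was searched as such. E2F-type and CHR-type elements are known from promoters that are active in the S and G2 phases. The sequences are those of RefSeq on the build GRCr8, 250 bases up to the start, written 5′ to 3′ on the strand of the gene.
*Ube2t* upstream bases (GRCr8 chr13:48954916-48955165, plus strand): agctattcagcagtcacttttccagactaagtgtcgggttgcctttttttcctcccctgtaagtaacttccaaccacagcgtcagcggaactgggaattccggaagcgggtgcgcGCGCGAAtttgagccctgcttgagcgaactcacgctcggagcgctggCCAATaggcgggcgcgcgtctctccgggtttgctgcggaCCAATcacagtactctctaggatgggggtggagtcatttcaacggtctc
*Bard1* upstream bases (GRCr8 chr9:80143756-80144005, minus strand): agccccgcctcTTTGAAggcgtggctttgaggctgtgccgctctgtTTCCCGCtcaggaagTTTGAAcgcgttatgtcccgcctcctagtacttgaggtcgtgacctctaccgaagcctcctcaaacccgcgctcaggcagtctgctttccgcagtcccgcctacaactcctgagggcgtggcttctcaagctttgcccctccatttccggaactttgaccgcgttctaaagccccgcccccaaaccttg
*Brca1* upstream bases (GRCr8 chr10:86977582-86977831, minus strand): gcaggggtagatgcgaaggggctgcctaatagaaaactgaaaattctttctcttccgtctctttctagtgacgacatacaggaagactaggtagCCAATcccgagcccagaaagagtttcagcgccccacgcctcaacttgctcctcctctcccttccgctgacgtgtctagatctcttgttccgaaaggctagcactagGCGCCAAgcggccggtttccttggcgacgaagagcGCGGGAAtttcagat
*Brca2* upstream bases (GRCr8 chr12:4895197-4895446, plus strand): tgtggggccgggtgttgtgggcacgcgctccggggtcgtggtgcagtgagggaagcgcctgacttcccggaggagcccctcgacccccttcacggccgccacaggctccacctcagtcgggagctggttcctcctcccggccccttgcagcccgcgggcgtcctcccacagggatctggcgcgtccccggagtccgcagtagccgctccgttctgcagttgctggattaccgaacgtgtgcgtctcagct
In *Ube2t* an E2F-type match, read on the other strand as GCGCGAA, lay 135 to 129 bases before the start and was followed by 2 CCAAT boxes. *Bard1* held an E2F-type TTCCCGC 204 to 198 bases before the start, between 2 matches to TTTGAA. *Brca1* held 2 E2F-type matches, of which the nearer, GCGGGAA, lay 15 to 9 bases before the start. The *Brca2* window held none of the motifs searched.

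A promoter was found for 31 of the 35 genes. E2F-type letters were in 9 of the 31 (29.0%), against 7.97% of all 27457 promoters in the table. They were in 6 of the 15 promoters of genes called higher and in 3 of the 16 promoters of genes not called. The other called genes with a match were *Usp1*, *Fancl* and *Rad50*, and the genes not called were *Rad51d*, *Fancc* and *Fancf*. CHR-type letters were in 4 of the 31 (12.9%), against 17.3% of all promoters, and CCAAT in 11 (35.5%), against 34.3%. In *Fancf* the E2F-type match GCGCCAA and a CCAAT box shared letters. These counts describe 1 start site per gene, and the binding of no factor was measured.

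The probes of a few genes are also shown, because each covers more of the genome than its own length, as a probe across an exon junction does: the single probes of *Fancd2* and *Fanci*, the pair of proteins that receives ubiquitin, and the dimmer of the *Brca1* probes.
*Fancd2* probe (rn4 chr4:149490916-149491599, plus strand): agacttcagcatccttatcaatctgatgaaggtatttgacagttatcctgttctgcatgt
*Fanci* probe (rn4 chr1:135195888-135196131, plus strand): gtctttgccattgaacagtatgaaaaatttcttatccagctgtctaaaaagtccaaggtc
*Brca1* probe (rn4 chr10:90519749-90520715, minus strand): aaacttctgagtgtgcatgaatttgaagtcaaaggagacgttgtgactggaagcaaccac
Each probe has 60 bases. Its ends lie further apart than that in the genome, by a span of 684 bases in *Fancd2*, 244 in *Fanci* and 967 in *Brca1*.

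In replicating β-cells, 16 of the 35 recombination, Fanconi and mismatch repair genes were called higher and 0 were called lower. Among all 17582 genes, 5.95% were called higher and 2.58% lower. The median log2 ratio of the 35 was 0.85, against 0.03 over all genes. It was 1.31 in preparation 1, 1.35 in preparation 2 and 0.55 in preparation 3. All 3 preparations read higher for 18 of the 35 genes, against 18.5% of all genes. The 3 replicating arrays all lay above the 3 quiescent arrays for 17 of the 35, against 11.1% of all genes, and these were the 16 called genes and *Fance*. *Mre11a* and *Rad54b*, each with a missing value, could not be scored in these counts, which leaves 33 of the 35. The shares over all genes likewise leave out genes that could not be scored. No gene of the set had all replicating arrays below all quiescent arrays, against 5.77% of all genes. *Ube2t* and *Bard1* are among the genes that the study listed for the smallest p-values on these same arrays, so their place at the top is no independent evidence. Without them, 14 of 33 genes were called higher, with a median of 0.69.

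After Benjamini-Hochberg adjustment over all 45598 probes in limma, 0 of the 35 genes had an adjusted p under 0.05, as was true of 0% of all genes. The smallest adjusted p over all probes in limma was 0.0977. *Ube2t* shared this value with other probes, such as that of *Top2a*, so it does not rank *Ube2t* first. At an unadjusted p under 0.05, 16 of the 35 genes and 4379 of all probes passed. Leaving out preparation 1 lowered the number of called genes to 8, with 1.69% of all genes called higher. The number was 18 without preparation 2, with 4.7% of all genes, and 17 without preparation 3, with 14.5%. The genes still called without preparation 1 were *Bard1*, *Brca1*, *Brca2*, *Fancd2*, *Rad51b*, *Rad54l*, *Ube2t* and *Xrcc2*.

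**Figure D1:**
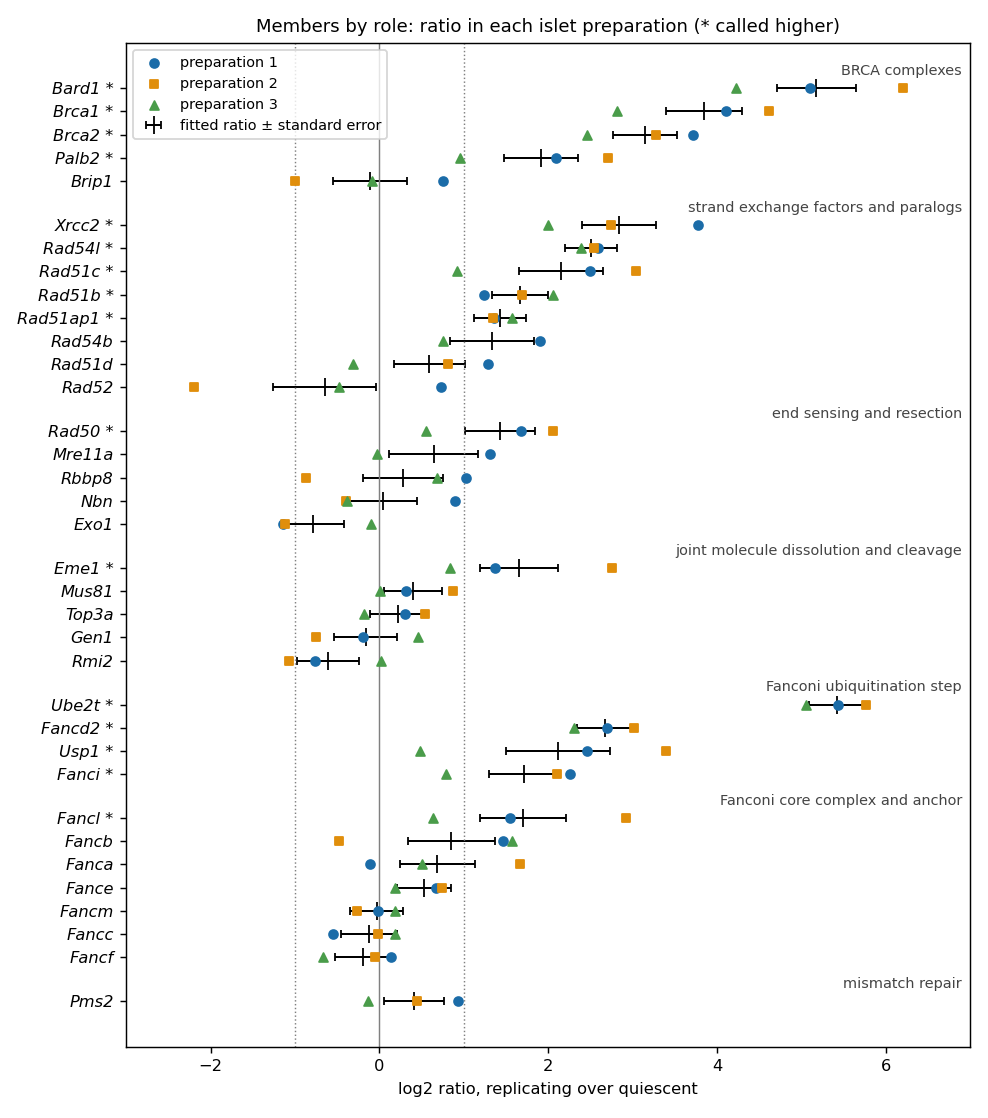
Log2 ratio of replicating over quiescent β-cells for the 35 genes, grouped by role, with 1 symbol per islet preparation and a bar for the fitted ratio ± its standard error; dotted lines mark a ratio of 1 and -1. The 16 called genes, marked with an asterisk, lie above 0 in all 3 preparations and include 4 of 4 genes of the Fanconi ubiquitination step but 1 of 7 of the core complex and anchor.

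The BRCA complexes held 4 called genes of 5, with a median log2 ratio of 3.15. *Bard1* encodes the RING partner of BRCA1 in a ubiquitin ligase. Its normalized log2 values in preparations 1, 2 and 3 were 11.97, 12.44 and 11.72 for replicating cells and 6.87, 6.24 and 7.50 for quiescent cells. The groups lay far apart, and the log2 ratio was 5.18 with a standard error (SE) of 0.47, a 36.2-fold difference. Its quiescent value in preparation 2 lay near the lowest value marked well above background on that array, 5.91. Over the other settings the log2 ratio ran from 4.66 to 6.05. *Brca1*, which acts in resection and in recruiting PALB2, read 11.42, 11.73 and 11.06 in replicating and 7.32, 7.12 and 8.25 in quiescent cells. Its log2 ratio was 3.84 (SE 0.45), smallest in preparation 3 at 2.82. *Brca2*, whose product loads the recombinase on single-stranded DNA, read 9.92, 9.35 and 9.66 against 6.20, 6.07 and 7.21. This gave a log2 ratio of 3.15 (SE 0.38) with no overlap between the groups. *Palb2*, the bridge between BRCA1 and BRCA2, read 8.38, 8.71 and 8.08 in replicating and 6.29, 6.00 and 7.12 in quiescent cells, a log2 ratio of 1.92 (SE 0.44). The helicase gene *Brip1* differed from the other 4 of its group: its log2 ratio was 0.75 in preparation 1 and below 0 in the other preparations, and the fitted -0.11 had a 95% interval of -1.23 to 1.001.

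The strand exchange factors and paralogs held 5 called genes of 8, with a median of 1.54. *Xrcc2*, a paralog of the recombinase, read 11.41, 11.15 and 11.30 on the replicating arrays and 7.65, 8.40 and 9.30 on the quiescent arrays. All 3 quiescent values lay lower, and the log2 ratio was 2.84 (SE 0.44). *Rad54l*, a DNA translocase that drives strand invasion, read 10.94, 11.22 and 10.62 against 8.35, 8.68 and 8.22. Its ratios of 2.59, 2.54 and 2.39 were close in the 3 preparations, and the fitted value was 2.51 (SE 0.30). The paralog *Rad51c* read 9.61, 9.31 and 9.34 in replicating cells. Its quiescent values of 7.11, 6.28 and 8.42 were more scattered, and the log2 ratio was 2.15 (SE 0.50).

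*Rad51b*, another paralog, read 9.27, 9.22 and 8.90 against 8.03, 7.52 and 6.84, a log2 ratio of 1.66 (SE 0.34) that was largest in preparation 3. *Rad51ap1*, whose product stimulates joint formation by the recombinase, read 10.14, 10.82 and 9.80 against 8.79, 9.48 and 8.23. The log2 ratio was 1.42 (SE 0.31), with 1.35, 1.35 and 1.57 in the 3 preparations. *Rad54b*, a relative of *Rad54l*, had no value on the quiescent array of preparation 2, where its spot was marked as an outlier. Its other ratios were 1.91 and 0.75, and the fitted log2 ratio of 1.33 had a p of 0.0539 in limma and was not called, but it was called under 8 of the 14 other settings tried. *Rad51d* and *Rad52*, which anneals single strands, were not called, with log2 ratios of 0.59 and -0.65. The quiescent value of *Rad52* in preparation 2 was 8.94, against 7.06 and 7.69 in the other preparations, and without that preparation its ratio was 0.13.

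In the Fanconi ubiquitination step all 4 genes were called, with a median of 2.39. *Ube2t* encodes the enzyme that carries ubiquitin to FANCD2 and FANCI. It read 11.89, 11.73 and 11.66 on the replicating arrays and 6.47, 5.96 and 6.60 on the quiescent arrays. With a log2 ratio of 5.42 (SE 0.33; 95% interval 4.58 to 6.25), a 42.7-fold difference, it was the gene of the set with the largest ratio, and its ratios of 5.43, 5.77 and 5.06 were all above 5. Over the other settings its log2 ratio ran from 5.24 to 7.19, the highest with Agilent's processed signal. The quiescent values of *Ube2t* were well above background but close to the lowest value so marked on each array, 6.04, 5.91 and 6.31. The size of its fold thus rests on values near background. On the quiescent array of preparation 2, *Bard1*, *Brca2*, *Palb2*, *Fancd2*, *Fanci* and *Rad50* also read near that lowest value, at 6.00 to 6.25. The same held for *Brca2* (6.20) and *Palb2* (6.29) on the quiescent array of preparation 1 and *Fancd2* (6.61) on that of preparation 3. *Fancd2*, read by the junction probe shown above, was at 9.25, 9.26 and 8.91 in replicating and 6.55, 6.25 and 6.61 in quiescent cells, a log2 ratio of 2.67 (SE 0.33). Its partner *Fanci* was at 8.92, 8.26 and 8.56 against 6.66, 6.16 and 7.77, a log2 ratio of 1.71 (SE 0.42). *Usp1*, which removes the ubiquitin, read 9.82, 9.30 and 9.76 against 7.36, 5.90 and 9.27. In preparation 3 its quiescent value came within 0.48 of the replicating value, and the value in preparation 2 was not well above background, so the log2 ratio of 2.11 carried the widest SE of the called genes, 0.61.

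The Fanconi core complex and its anchor gave another picture, with 1 called gene of 7 and a median of 0.53. The called gene was *Fancl*, which encodes the ubiquitin ligase subunit. It read 9.71, 10.20 and 9.58 in replicating and 8.17, 7.29 and 8.95 in quiescent cells, a log2 ratio of 1.70 (SE 0.51). *Fancb*, a partner of FANCL, had ratios of 1.47, -0.49 and 1.57, and its fitted 0.85 had a 95% interval of -0.46 to 2.16. It was called without preparation 2, at 1.52. Its quiescent value in preparation 3 was not well above background, so both that ratio and the one without preparation 2 rest on a value at background. The scaffold gene *Fanca* had a log2 ratio of 0.69 (95% interval -0.44 to 1.81). *Fance*, the link between the core and FANCD2, had 3 replicating values above the 3 quiescent values, but by a log2 ratio of 0.53 (95% interval -0.29 to 1.35). *Fancm*, the translocase that anchors the core to DNA, had -0.03 (-0.83 to 0.76), and *Fancc* had -0.12 (-0.97 to 0.72). *Fancf*, a core adaptor, was not well above background on any replicating array. Nothing is read from its ratio, which still enters the counts, the median and the plot. The difference between the ubiquitination step and the core complex was not tested, and the intervals of the other 5 core genes not called reached from below 0 to between 0.72 and 2.16.

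Among the genes that sense and trim the broken ends, 1 of 5 was called, with a median of 0.28. *Rad50*, which tethers the ends, read 8.26, 8.07 and 8.07 in replicating and 6.59, 6.02 and 7.52 in quiescent cells, a log2 ratio of 1.43 (SE 0.41). Its partners in the same complex were not called from their brightest probes. *Mre11a*, the nuclease, had a log2 ratio of 0.64 (95% interval -0.80 to 2.08) over the preparations in which it was measured. A second *Mre11a* probe, measured on all 6 arrays, gave 2.00 and was called. *Nbn*, the other partner, had 0.04 (-0.99 to 1.06). *Rbbp8*, which starts resection, had 0.28 (-0.92 to 1.48), with -0.87 in preparation 2 alone below 0. *Exo1*, the exonuclease of long-range resection and of mismatch repair, read 8.72, 9.13 and 8.76 in replicating and 9.86, 10.25 and 8.85 in quiescent cells. By its brightest probe it was the gene of the set with the lowest ratio, -0.79 (SE 0.37, 95% interval -1.73 to 0.16). It was lower in all 3 preparations and did not pass the call. A second *Exo1* probe gave 1.04, also not called.

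The genes that take joined molecules apart also held 1 called gene of 5, with a median of 0.22. *Eme1*, the partner of the nuclease MUS81, read 9.18, 9.16 and 8.93 in replicating and 7.81, 6.41 and 8.09 in quiescent cells, a log2 ratio of 1.65 (SE 0.47). *Mus81* itself had 0.40 (95% interval -0.47 to 1.26). *Top3a*, the topoisomerase of dissolution, had 0.22 (-0.62 to 1.06), and its companion *Rmi2* had -0.61 (-1.53 to 0.31). The resolvase gene *Gen1* had -0.16 (-1.11 to 0.78). Mismatch repair was represented by *Pms2* alone, an endonuclease subunit, whose log2 ratio was 0.41 (-0.50 to 1.32), with 0.93, 0.44 and -0.14 in preparations 1, 2 and 3.

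**Figure D2:**
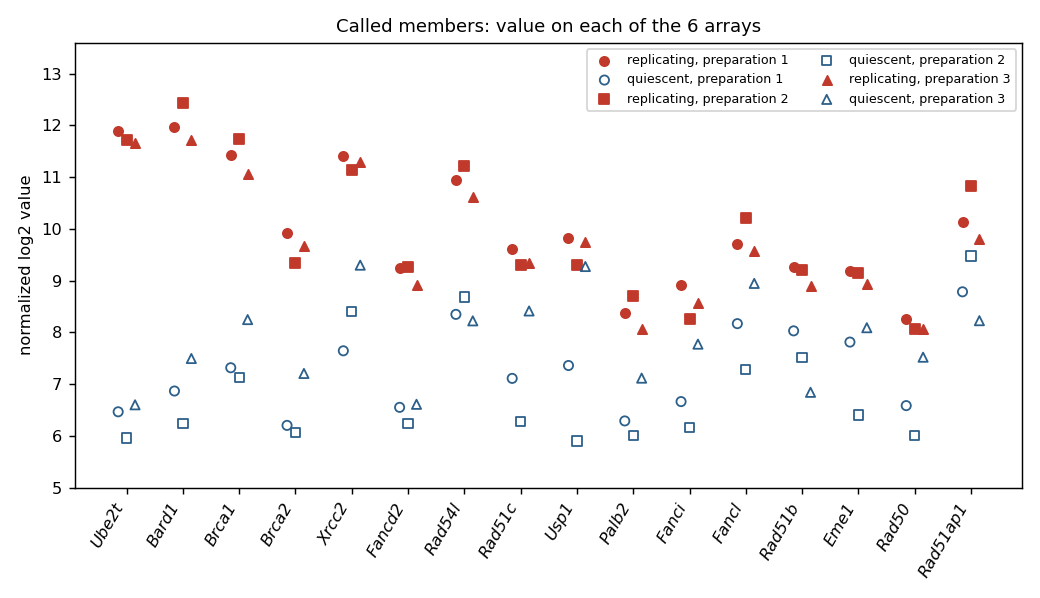
Normalized log2 value of each of the 16 called genes on the 6 arrays, with filled red symbols for replicating and open blue symbols for quiescent β-cells and 1 symbol shape per preparation. The replicating values of each gene lie above its quiescent values, and the quiescent value of preparation 3 is the highest of the quiescent ones for 13 of the 16; levels of different genes come from different probes and are not comparable.

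The replicating arrays differed less among themselves than the quiescent arrays did. For the 16 called genes the median SD over 3 arrays was 0.28 in replicating and 0.63 in quiescent cells, and the quiescent SD was the larger for 14 of the 16. The median level over these genes was 9.77, 9.33 and 9.62 on the replicating arrays. On the quiescent arrays it was 7.22, 6.26 and 7.93. The quiescent array of preparation 3 was the highest of its group for 13 of the 16 genes, and that of preparation 2 the lowest for 12. The preparation 3 ratio was the smallest of the 3 for 14 of the 16 genes, and it stayed at or above 1 for 9. Among the 16, *Rad51b* and *Rad51ap1* went the other way, with their largest ratio in preparation 3. Among genes measured in all 3 preparations, the preparation 3 ratio was the smallest for 20 of 33 genes of the set. On the whole array it was the smallest for 7453 of 17216. Over all genes the preparation 3 ratio was at or above 1 for 3.82%, against 13.9% in preparation 1 and 28% in preparation 2. Across the repair genes the ratios of different preparations had an r of 0.866 between preparations 1 and 2, 0.848 between 1 and 3 and 0.799 between 2 and 3. Over all genes these were 0.613, 0.277 and 0.0404. These correlations run across genes measured on the same arrays and are given as a description.

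The array carried several probes for 13 of the 35 genes, and the results above rest on the brightest. Of the 17 other probes, 7 were called higher. Of the 5 called genes with several probes, 4 had another probe that was called, and of the 8 genes not called, 3 had one. *Xrcc2* gave nearly the same ratio from both probes, 2.84 and 2.86. *Rad51ap1* gave 1.42 and 2.04. In *Brca1* the brightest probe, at rn4 chr10:90512623-90512682 on the minus strand, gave 3.84, whereas the junction probe shown above gave 1.11, with 7.74, 8.66 and 7.92 in replicating and 6.88, 7.38 and 6.72 in quiescent cells. *Brca2* gave 3.15 and 1.83. *Rad51b* was the called gene whose call did not extend to its other probes, at 0.89 and 0.50.

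Among the genes not called, *Mre11a* was called from its other probe. This probe also spans more of the genome than its length, was measured on all arrays and read 8.82, 8.67 and 8.995 in replicating and 6.68, 6.05 and 7.75 in quiescent cells. That probe had a log2 ratio of 2.00 (SE 0.39) with no overlap and was called, while the brightest probe, at 0.64, was not. *Rad54b* had a second probe measured on all 6 arrays, which gave 1.26 with a p of 0.022 in limma and was called. Of the 3 *Fanca* probes, 1 was called, at 1.02. *Exo1* had probes of opposite sign, -0.79 and 1.04, neither of them called, and *Rad52* gave -0.65 and 0.35. The probe positions given in the files put the *Brca2* and *Rad54l* probes on the strand of rn4 opposite to that of the gene in GRCr8; whether the builds differ in orientation there was not tested.

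**Figure D3:**
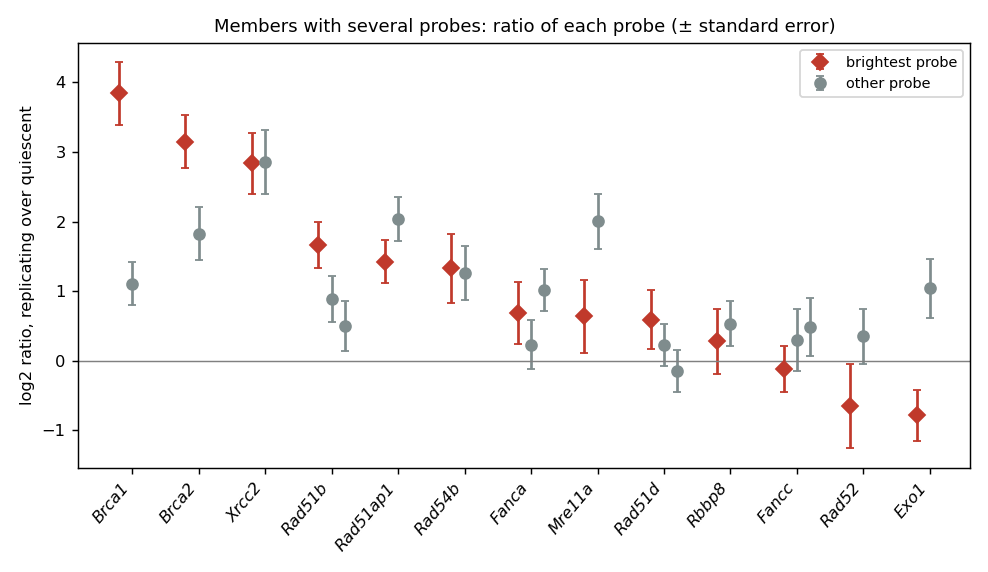
Log2 ratio ± standard error of each probe for the 13 genes with several probes, with a red diamond for the brightest probe and grey circles for the others. The *Brca1* probes lie at 3.84 and 1.11, the *Mre11a* probes at 0.64 and 2.00, and the *Exo1* probes on either side of 0.

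Genes of the same and of other repair processes that were outside the set were counted in the same way. Of 43 other recombination, crosslink and mismatch repair genes on the array, 5 were called higher and 0 lower, against 5.95% and 2.58% of all genes, with a median log2 ratio of 0.61. The 3 with the largest fitted ratios were *Parpbp*, *Apitd1* and *Psmc3ip*. *Parpbp*, whose product limits strand exchange, had 3.51 (SE 0.35), but in quiescent cells its probe was well above background in 1 sample of 3, so its quiescent level is largely a background reading. *Apitd1*, a histone-fold partner of FANCM, had 2.68 (SE 0.34), and *Psmc3ip*, a helper of strand exchange, had 1.64 (SE 0.43). *Psmc3ip* had no value on the quiescent array of preparation 2, so its ratio rests on preparations 1 and 3 (1.88 and 1.41). The other called genes were *Rad18* and *Swi5*. Base excision repair had 2 of 20 genes called higher, *Xrcc1* (1.54) and *Neil3* (1.35, with 1 quiescent value not well above background), and a median of 0.51. End joining, which repairs breaks without a template, had 0 of 8 called in either direction in limma, and a median of -0.41. At an unadjusted p under 0.05 in limma stood 1 of these genes, which read lower in replicating cells (-0.84). Nucleotide excision repair had 0 of 19 called higher and 1 lower, *Uvssa* (-1.28), with a median of 0.35. Kinetochore genes, set beside them as genes of mitosis, had 20 of 24 called higher and a median of 2.56. Origin licensing and helicase genes had 8 of 13 and a median of 1.20. Both of these lists hold genes that the study listed for the smallest p-values on these same arrays, and those genes were not removed. The 7 calls among the other repair genes became 2 without preparation 1, where 1.69% of all genes were called higher, and 25 without preparation 3, where 14.5% were. The differences between these lists were not tested.

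**Figure D4:**
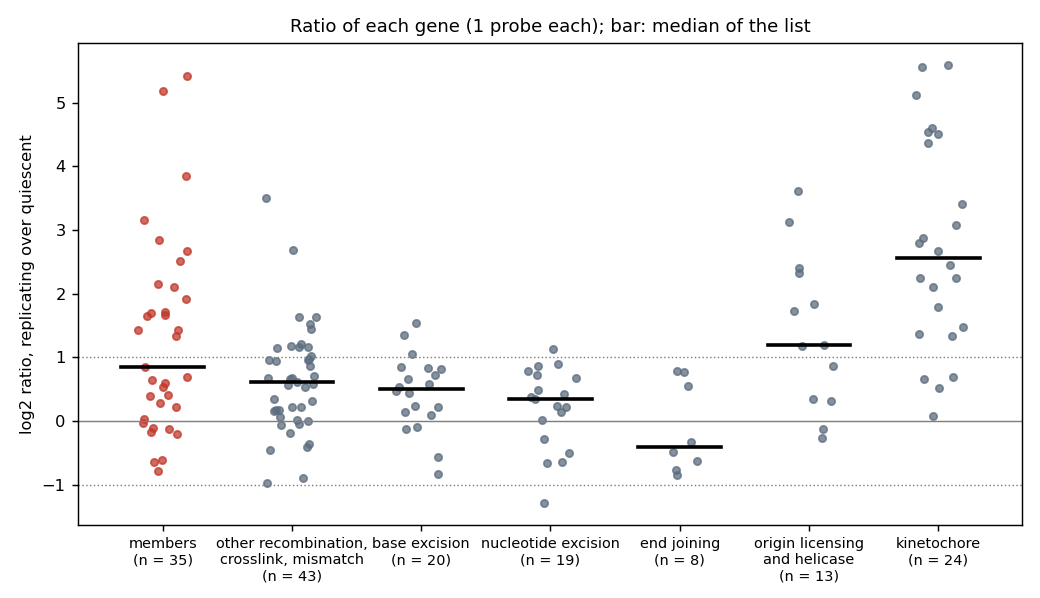
Log2 ratio of each gene in 7 lists, 1 probe per gene, with points spread sideways for legibility and a bar at the median of the list; dotted lines mark 1 and -1. The medians run from -0.41 for end joining to 2.56 for the kinetochore, with the 35 recombination, Fanconi and mismatch repair genes at 0.85.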

How the data were processed

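The authors amplified total RNA of sorted, fixed cells, labelled the cDNA with Cy3, hybridised the 6 samples to Agilent arrays and read them with Feature Extraction 10.7.3.1. The deposited scanner files give an intensity, a local background and quality marks per spot. The log2 values deposited by the authors, normexp-corrected and quantile-normalized, were the main values. Their rank correlation with log2 values recomputed from the scanner intensities (offset 50) was 1 on every array, and they differed by at most 0.116.

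Control spots were left out, values of outlier spots were removed and repeated spots of 1 probe were averaged. Each gene took its brightest probe, by the mean over the arrays with a value. These were 5 of the 6 arrays for the chosen probes of *Mre11a* and *Rad54b*. Of the 35 genes, 32 were well above background on all 6 arrays, and no spot was saturated. The precision is limited by 3 arrays per group. Each of 45598 probes was tested with limma 3.58.1 (lmFit and eBayes) in R 4.3.3 (data.table package, version 1.17.8), with the islet preparation as a block and Benjamini-Hochberg adjustment; a gene was called at a p of at most 0.05 and a log2 ratio of at least 1 or at most -1, the criterion of the study. The pairing follows the paper, which sorted the cells from 3 islet preparations and used a paired test. The replicate number in the labels was taken as the preparation, so that each gave 1 sample of each group. After subtraction of the group means, arrays of 1 preparation correlated across probes with an r of 0.0561, 0.242 and 0.258. The code was tested on simulated data. The alternatives changed the background correction, the normalization, the outlier and background filters, the block, the variance trend, the choice of probe and the preparations included. All members are named in the text. Of the other repair lists, the 3 called genes with the largest ratios are named, or all called genes where there were fewer. Further called genes and single marker genes were named after their values were seen. No genes were named for the kinetochore and origin licensing lists. The members and all gene lists were chosen with earlier results of these data known. Probe positions are those of rn4 in the files, and promoters those of RefSeq on GRCr8.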

Additional observations from a re-analysis of the deposited data

How the results depend on the processing

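Under 14 alternatives, 7 of the 16 called genes kept their call in every one: *Bard1*, *Brca1*, *Brca2*, *Fancd2*, *Rad54l*, *Ube2t* and *Xrcc2*. Another 5 lost it in 1 alternative and 4 in 2; apart from *Rad51b* as the median over its probes, these losses came without preparation 1 or with Agilent's processed signal scaled to the 75th percentile. The linear fold of 12 of the 16 moved by over 1.5 times in at least 1 alternative. The number called higher was 8 to 18 when single preparations were left out. The number called lower, 0 in the reported fit, was 1 with the processed signal (*Fancf*, read at background in all 3 replicating samples, so that nothing is drawn from this call) and 0 to 1 when preparations were left out (*Exo1* without preparation 3, -1.13). The median log2 ratio of the set was 1.53 with a normexp offset of 0, 1.32 with the processed signal and 0.75 to 1.31 when preparations were left out. The median of all genes moved from 0.03 to -0.41 with the processed signal and to -0.25 with normexp scaled to the 75th percentile, so ratios there are relative to a lower centre. The number of genes with an adjusted p under 0.05 was 7 with normexp scaled to the 75th percentile, 6 with cyclic loess, 2 with a variance trend and 0 to 2 when preparations were left out, and the number over all probes was 719, 204, 61 and 0 to 84. Without the replicate block it was 5, with 99 over all probes, and 17 genes were called higher. The number of other repair genes called higher, 7 in all, was 4 with the processed signal, where 2.17% of all genes were called higher, and 2 to 25 when preparations were left out, where 1.69% to 14.5% were. The cause of these differences was not tested.

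Of 490 values of single genes under the alternatives, 25 had the opposite sign, 0 of them of a called gene. With the processed signal these were *Nbn* (-0.00837), *Top3a* (-0.14), *Mus81* (-0.18), *Gen1* (0.10), *Fance* (-0.0998) and *Pms2* (-0.32). With normexp scaled to the 75th percentile they were *Nbn* (-0.0105), *Top3a* (-0.12), *Mus81* (-0.0533), *Gen1* (0.0740) and *Pms2* (-0.0723), and with cyclic loess *Nbn* (-0.21), *Fancf* (0.0818, at background) and *Fancm* (0.0325). *Mre11a* was at -0.0413 with outlier spots kept and *Fancc* at 0.20 as the median over its probes. When single preparations were left out, the ratio ran from -0.55 to 0.33 for *Brip1*, -0.0264 to 1.31 for *Mre11a*, -0.39 to 0.25 for *Nbn*, -0.0940 to 0.85 for *Rbbp8*, -1.34 to 0.13 for *Rad52*, -0.47 to 0.13 for *Gen1*, -0.28 to 0.0873 for *Fancc*, -0.36 to 0.0381 for *Fancf* and -0.14 to 0.0847 for *Fancm*.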
